A study of Mus musculus with 6 samples.

Results

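Hedgehog signalling was read here through 9 genes fixed by name: the ligands Shh and Ihh, the receptor Ptch1, the transducer Smo, the transcription factors Gli1, Gli2 and Gli3, the ligand-binding inhibitor Hhip and the co-receptor Boc. All 9 were among the 23420 gene symbols of the deposited count tables. They were named for their place in the pathway, with earlier results of these data known. The samples were lacrimal gland buds of E14.5 mouse embryos on a mixed background, cut from frozen sections by laser capture and sequenced as bulk RNA. The 3 control samples carried the Le-Cre transgene, which expresses Cre together with GFP in the ocular surface ectoderm, including the conjunctival epithelium and the lacrimal bud. The 3 Pea3 TKO samples carried Le-cre on a Pea3-/- background, together with the alleles Ermfl/fl and Er81fl/fl. Both groups therefore carried Le-Cre, Pea3 (Etv4) was missing from every cell of the mutant embryos, and Erm (Etv5) and Er81 (Etv1) were floxed and deleted only where Cre was active. The titles of the control samples read WT while their genotype reads Le-Cre. The labels do not say whether a sample was 1 embryo or a pool, or whether samples came from separate litters, so p-values measure only the spread between these samples, which may be technical. In bulk RNA of this kind, fewer cells of a type and less RNA per cell cannot be told apart.

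Hedgehog ligands are secreted proteins that bind Patched receptors and so release Smoothened, a membrane protein that Patched otherwise holds inactive at the primary cilium. Active Smoothened turns the Gli factors into activators. Without ligand, Gli3 and to a lesser degree Gli2 are cut into repressors. Gli1, Ptch1 and Hhip are themselves induced by the pathway in most responding cells, so they serve as its usual readouts. In budding glands such as the salivary gland, the ligand commonly comes from the epithelium and much of the response lies in the mesenchyme.

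Total counts lay between 14194775 and 17860140 per sample, so that 3 counts correspond to between 0.169 and 0.21 CPM, that is, counts in a library scaled to 1e6. Levels below are CPM after scaling by TMM, a composition correction from the edgeR package. Fold changes and adjusted p-values come from the edgeR quasi-likelihood test with Benjamini-Hochberg adjustment over all 13087 genes that passed a low-count filter. A gene was called when its adjusted p was under 0.05. The targeted genes were lower in every Pea3 TKO sample: Etv5 lay between 961 and 1202 CPM in controls and between 88.2 and 177 CPM in Pea3 TKO, Etv4 between 129 and 184 CPM against 10.9 and 28.4 CPM, and Etv1 between 28.7 and 33.9 CPM against 9.21 and 9.98 CPM. Reads were counted over whole genes, so these levels do not read the deleted exons alone. Epcam, an epithelial adhesion protein, stood between 1201 and 1500 CPM in all 6 samples. Of 6 lacrimal bud markers 4 were called lower and 1 higher in Pea3 TKO, where 11.3% of all tested genes were called lower and 13.6% higher. The summed level of the 6 markers was 1338 to 1551 CPM in controls against 886 to 981 CPM in Pea3 TKO. Some libraries stood apart. The 4 Y-linked genes summed to 136 to 175 CPM in the controls and 139 CPM in Pea3 TKO replicate 3 but to 0.444 and 0.210 CPM in Pea3 TKO replicates 1 and 2. The 14 mesenchyme markers summed to 782 and 950 CPM in those same 2 libraries, against 361 CPM in Pea3 TKO replicate 3 and 328 to 387 CPM in controls, where Vim and Foxc1 made up most of the sum.

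Of the 9 Hedgehog genes, Smo, Boc, Gli3, Gli2 and Ptch1 were measured in every sample, Gli1 rose and Gli3 fell in Pea3 TKO, and the ligands were at or near 0. The test could be run on 6 members, since Shh, Ihh and Hhip had too few counts. Gli1 was the single member called higher, by 3.74 on the log2 scale, and Gli3 the single one called lower, by -0.49. Over all tested genes 13.6% were called higher, 11.3% lower and 25.0% either way. The 2 calls among 6 tested members make 33.3%, and 1 of them, Gli1, passed the low-count filter through its Pea3 TKO samples alone, so nothing is read from this share. The median log2 fold change of the 6 was -0.25, against 0.01 over all tested genes. Control and Pea3 TKO values did not overlap for 2 of the 6 members, while 43.9% of all tested genes had groups that did not overlap.

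**Figure D1:**
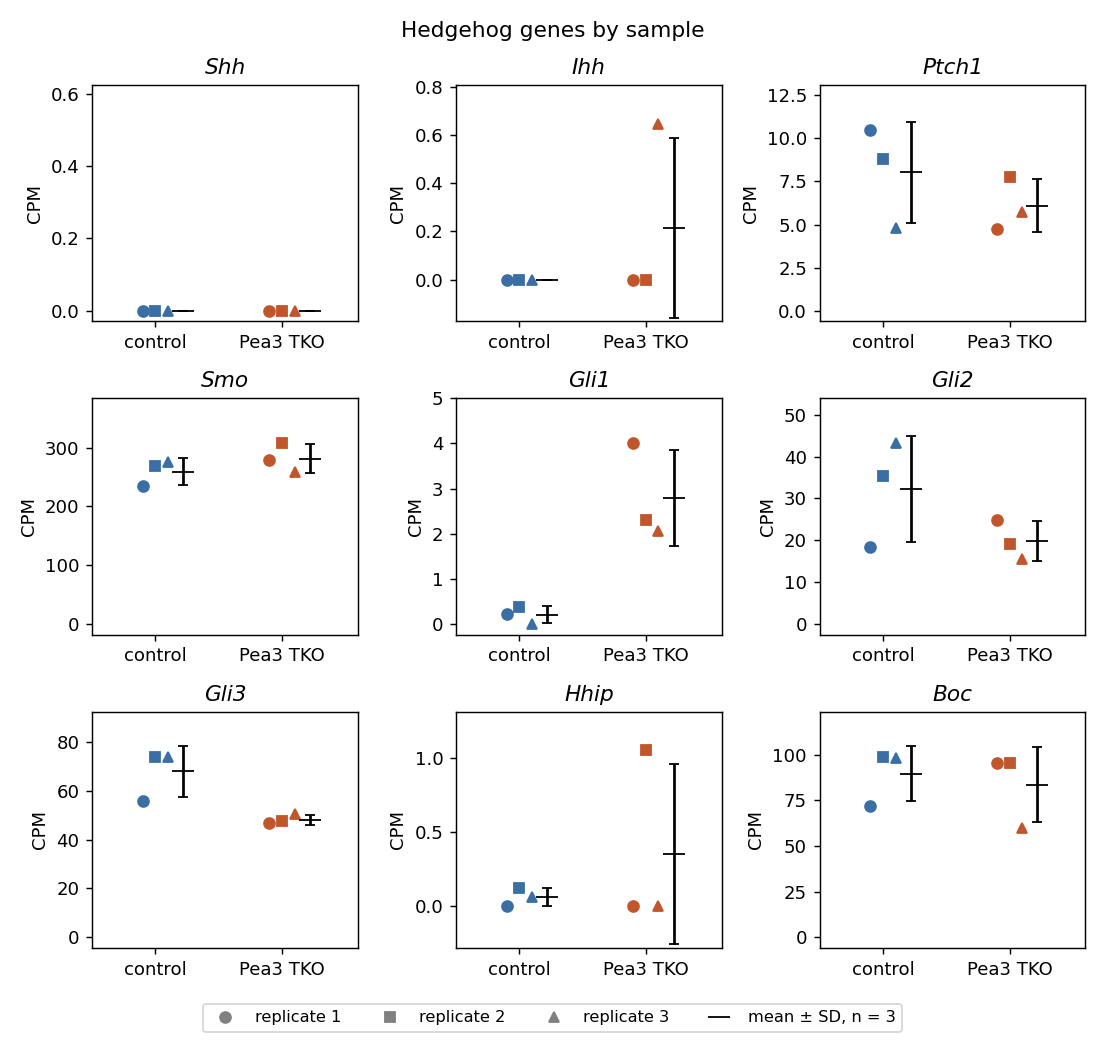
Level of each of the 9 Hedgehog genes in CPM (vertical axes start near 0 and differ between panels) in the 3 control and 3 Pea3 TKO samples, with the mean ± SD (n = 3) beside each group. Gli1 lay at or below 0.37 CPM in controls and at or above 2.06 CPM in Pea3 TKO, Gli3 was lower in every Pea3 TKO sample, and Shh was at 0 throughout.

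The ligands were examined first, to ask whether the bud epithelium carried transcripts of a Hedgehog signal. Shh (chr5:28456815-28467256 in GENCODE M21 on GRCm38, minus strand), the ligand of limb, neural tube and many epithelia, had 0 counts in all 6 libraries. A count of 0 allows a level of up to 0.21 CPM in the shallowest of them. Ihh (chr1:74945315-74951672, minus strand), the ligand best known from cartilage and gut, had 0 counts in 5 libraries and 11 counts, or 0.65 CPM, in Pea3 TKO replicate 3. The Ihh signal thus rested on 1 library and the groups shared the value 0. An exact two-sided permutation test gave p = 1. That outcome is fixed for a gene with counts in 1 library only, so nothing is read from it. Dhh, the third mammalian ligand, had 0 counts in every library. Limits set by a count of 0 cover counting error only.

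Genes that make or release the ligand were read from a list of 6. Hhat, the acyltransferase that attaches palmitate to Hedgehog proteins, had 30.7, 37.5 and 38.4 CPM in controls and 47.9, 43.6 and 38.4 CPM in the mutants, for a log2 fold change of 0.29 (95% interval -0.08 to 0.65, adjusted p = 0.231). Disp1, the membrane protein that releases lipid-bearing ligand, had 38.5, 51.3 and 43.8 CPM against 49.9, 63.4 and 45.0 CPM, with a log2 fold change of 0.24 (-0.15 to 0.64, adjusted p = 0.351). Scube3, one of the secreted carriers of released ligand, had 16.1, 22.7 and 19.3 CPM against 23.3, 19.6 and 10.9 CPM, with a log2 fold change of -0.11 (-0.77 to 0.54, adjusted p = 0.815). The groups overlapped for all 3 genes. None of the 3 genes tested in this list was called in either direction, where 25.0% of all tested genes were. Scube1 and Scube2 had too few counts to be tested: Scube1 had at most 2.92 CPM and Scube2 at most 0.254 CPM in any library.

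Ptch1 (chr13:63508328-63573598, minus strand) encodes the receptor that binds the ligand and is also a common target of the pathway. Its level was 10.5, 8.79 and 4.81 CPM in control replicates 1 to 3 and 4.76, 7.76 and 5.76 CPM in Pea3 TKO replicates 1 to 3. Control replicate 3 lay inside the range of the Pea3 TKO samples, so the groups overlapped. The log2 fold change was -0.40 ± 0.39 (SE, 95% interval -1.27 to 0.47, n = 3 per group, adjusted p = 0.496). Over the 6 samples, the tested genes whose log2 CPM followed that of Ptch1 most closely were Tmem110 (Pearson r = 0.984), Sccpdh (0.982), Phc2 (0.971), Pxdc1 (0.970) and Hdac1 (0.968). These are the extremes among 13087 genes over 6 samples of 2 groups and are given as a description.

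Boc (chr16:44485049-44558897, minus strand) encodes a cell surface co-receptor that binds ligand beside Ptch1. It was at 72.1, 98.8 and 97.9 CPM in controls and 95.1, 95.6 and 60.0 CPM in Pea3 TKO. The groups overlapped, with control replicate 1 and Pea3 TKO replicate 3 both below the other 4 libraries. The log2 fold change was -0.10 ± 0.20 (SE, 95% interval -0.55 to 0.35, adjusted p = 0.754). Cdon, the closest relative of Boc and a co-receptor of the same kind, was at 26.0, 34.1 and 38.1 CPM in controls and 35.8, 30.0 and 26.8 CPM in Pea3 TKO, with a log2 fold change of -0.08 (-0.53 to 0.36, adjusted p = 0.796).

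In contrast to Boc and Cdon, the other 3 surface proteins of the receptor list were called. Gas1, a membrane-anchored co-receptor that promotes signalling, was at 90.5, 78.8 and 71.3 CPM in controls and 317, 349 and 180 CPM in Pea3 TKO. Every Pea3 TKO sample was above every control, and Gas1 rose by 1.81 ± 0.23 on the log2 scale (adjusted p = 6.54e-04). Lrp2, a large endocytic receptor that binds Shh among many ligands, had 5.24, 4.42 and 3.97 CPM in controls and 40.2, 40.9 and 29.0 CPM in Pea3 TKO, and rose by 3.01 ± 0.24 (adjusted p = 6.2e-05). Gpc3, a glypican that binds Hedgehog ligands and limits their access to Patched, is X-linked and was at 547, 641 and 545 CPM in controls and 322, 314 and 210 CPM in Pea3 TKO. Its groups did not overlap either, and Gpc3 fell by 1.03 ± 0.17 on the log2 scale (adjusted p = 0.00237). All 3 kept their call in every alternative, although Gas1 dropped to 1.15 with the Y-linked level as a covariate (adjusted p = 0.00712). Of the 4 genes counted in the list, 2 rose, 1 fell and 1 did not pass the test (75.0% called, against 25.0% of all tested genes), with a median log2 fold change of 0.86. The 7 surface ectoderm and epidermis markers, which are keratins and Sfn, moved with the same grouping. All 7 were called higher, against 13.6% of all tested genes. Their sum was 331 to 1427 CPM in controls and 4986 to 7197 CPM in Pea3 TKO. The pericyte and smooth muscle markers also followed the groups, at 12.4 to 17.0 CPM against 66.2 to 95.7 CPM. Within Pea3 TKO the order of Gas1 was that of the mesenchyme sum of 782, 950 and 361 CPM. In Pea3 TKO replicate 3 that sum lay within the control range of 328 to 387 CPM, while Gas1, at 180 CPM, was above every control. The part of these cell types in the changes of Gas1, Lrp2 and Gpc3 was not tested.

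Smo (chr6:29735503-29761365, plus strand), the seven-pass membrane protein that carries the signal past Patched, was the most abundant member. Its level was 234, 269 and 276 CPM in controls and 279, 307 and 258 CPM in Pea3 TKO. The groups overlapped, and the log2 fold change was 0.12 ± 0.12 (SE, 95% interval -0.15 to 0.38, adjusted p = 0.510). The deposited raw count of Smo was 4396 in each of the 3 Pea3 TKO libraries, against 4153, 4311 and 4238 in controls. Among 3240 genes with over 1000 counts in every library, Smo was the only one with the same count in 3 or more libraries, while 29 genes had a pair of equal counts. The cause was not tested, and the spread of Smo within Pea3 TKO reflects library scaling alone.

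The Gli factors were compared next, as the transcriptional output of the pathway. Gli1 (chr10:127329882-127341974, minus strand) acts only as an activator and is itself a target. It had 4, 6 and 0 counts in control replicates 1 to 3 and 63, 33 and 35 counts in Pea3 TKO replicates 1 to 3. As levels these were 0.23, 0.37 and 0 CPM in controls and 4.0, 2.31 and 2.06 CPM in Pea3 TKO. Every Pea3 TKO library was above every control library, and each group mean was low, at 0.200 ± 0.188 CPM against 2.79 ± 1.06 CPM (SD, n = 3). Gli1 rose by 3.74 ± 0.97 on the log2 scale (SE, 95% interval 1.57 to 5.91, adjusted p = 0.0208). It passed the low-count filter through its Pea3 TKO samples alone, as no control library reached 10 counts. The call was lost without control replicate 3 (3.19, adjusted p = 0.0506), without Pea3 TKO replicate 1 (3.39, 0.0850), without Pea3 TKO replicate 2 (3.87, 0.0561) and with the Y-linked level as a covariate (3.32, 0.162).

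Markers of other cell types are given beside Gli1. Of 13 tested mesenchyme markers 2 were called higher (15.4%, against 13.6% of all tested genes), Lum and Dcn. Lum was at 0.338, 1.43 and 8.39 CPM in controls and 60.5, 79.9 and 2.06 CPM in Pea3 TKO (adjusted p = 0.0423). Dcn was at 1.07, 0.249 and 4.42 CPM in controls and 69.7, 73.6 and 2.41 CPM in Pea3 TKO (adjusted p = 0.0165). For both, Pea3 TKO replicate 3 lay inside the range of the controls. Col3a1, a fibrillar collagen of connective tissue, was at 2.99, 6.42 and 53.3 CPM in controls and 120, 213 and 2.0 CPM in Pea3 TKO. Foxc1, a forkhead factor of periocular mesenchyme that epithelia can also express, was at 218, 229 and 184 CPM in controls and 271, 279 and 259 CPM in Pea3 TKO (adjusted p = 0.0507). Col3a1 thus differed widely within both groups, while Foxc1 was higher in every Pea3 TKO sample but not called. Without Pea3 TKO replicate 3 the log2 fold change of Gli1 was 3.92 (adjusted p = 0.0394). Pericyte and smooth muscle markers followed the groups: 3 of 4 were called higher (75.0%, against 13.6% of all tested genes). Among these were Acta2 and Tagln of the contractile apparatus. The sum of the 4 markers was 12.4 to 17.0 CPM in controls and 66.2 to 95.7 CPM in Pea3 TKO. The part of either cell type in the rise of Gli1 was not tested. Gli1 shares the end of its locus with Arhgap9 on the opposite strand, which had 23, 5 and 9 counts in controls and 8, 11 and 14 counts in Pea3 TKO. It is also overlapped by the antisense gene Gm47200, which is not analysed here. The stretch shared with Arhgap9 runs only from 127329882 to 127329943. Gm47200 runs from 127332391 to 127370406, so its span, introns included, covers most of the Gli1 locus. Gm47200 was not among the gene symbols of the count tables. Whether the counting used strand is not given in the sources used here. Reads in the stretches that Gli1 shares with these partners therefore cannot be told apart.

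**Figure D2:**
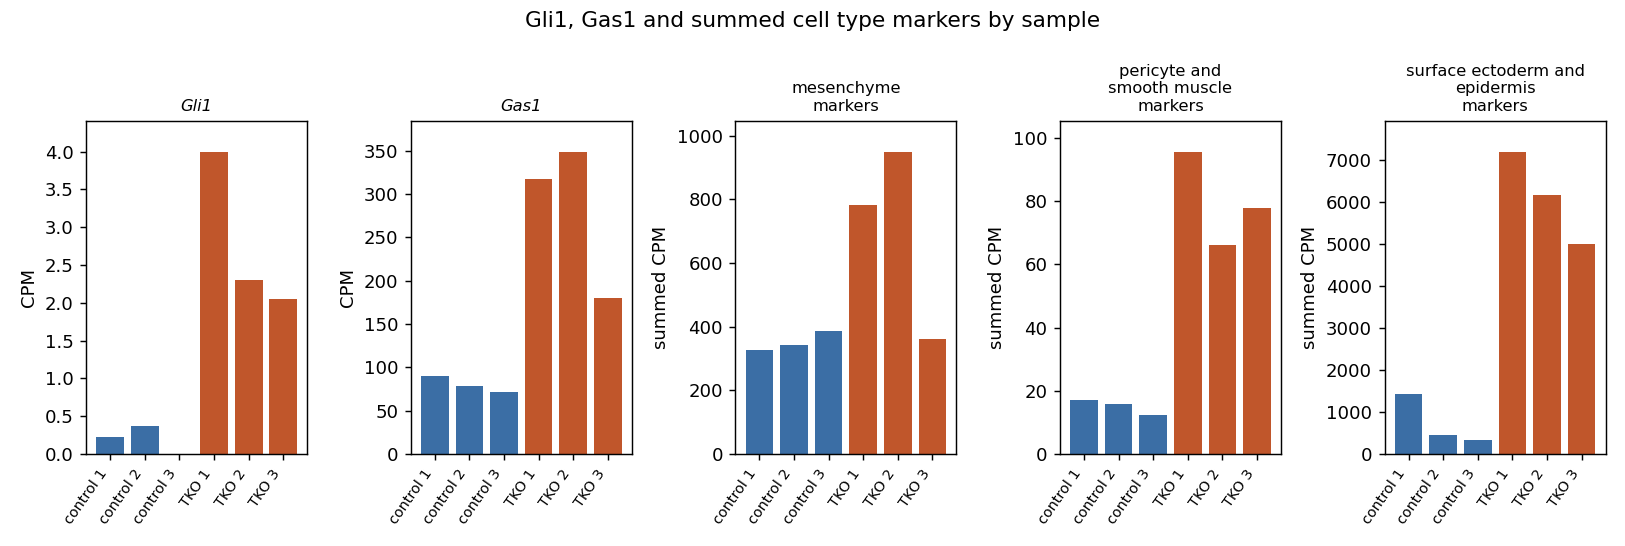
Bars give the level of Gli1 and Gas1 in CPM and the summed CPM of mesenchyme, pericyte and smooth muscle, and surface ectoderm and epidermis markers in each of the 6 libraries (control blue, Pea3 TKO orange, all axes from 0). Gli1, Gas1 and the pericyte and surface ectoderm sums are higher in every Pea3 TKO sample than in any control, and the mesenchyme sum is higher in Pea3 TKO replicates 1 and 2.

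Gli3 (chr13:15463235-15730026, plus strand) is the main source of Gli repressor. It was at 56.0, 73.9 and 74.1 CPM in controls and 46.7, 47.5 and 50.6 CPM in Pea3 TKO, so that the groups did not overlap and control replicate 1 lay nearest to the mutants. Gli3 fell by 0.49 ± 0.15 on the log2 scale (SE, 95% interval -0.83 to -0.16, adjusted p = 0.0390), from a mean of 68.0 ± 10.4 CPM to 48.2 ± 2.06 CPM (SD, n = 3). The call was narrow. It was kept without control replicate 1 and lost when any one of the other 5 samples was left out, with adjusted p between 0.0604 and 0.134, and also with the Y-linked level as a covariate (-0.44, adjusted p = 0.329). The direction was lower in each of these fits. The start of Gli3 is overlapped on the opposite strand by Gm6556, which is not analysed here.

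Gli2 (chr1:118834132-119053619, minus strand), usually the main activator of the family, varied widely among the controls. Its level was 18.4, 35.3 and 43.2 CPM in controls and 24.8, 19.0 and 15.4 CPM in Pea3 TKO. Control replicate 1 lay inside the range of Pea3 TKO, so the groups overlapped. The log2 fold change was -0.71 ± 0.31 (SE, 95% interval -1.40 to -0.01, adjusted p = 0.126), which did not pass the test. Without control replicate 1 it was -0.99 (adjusted p = 0.0144), and in the other leave-one-out fits the adjusted p was between 0.117 and 0.401. Control replicate 1 was the lowest control for Gli2, Gli3 and Boc and the highest for Ptch1. Its surface ectoderm and epidermis markers summed to 1427 CPM, against 455 and 331 CPM in control replicates 2 and 3. The part of these cells in the levels of control replicate 1 was not tested. Across the 6 samples log2 CPM of Gli2 and Gli3 had a Pearson r of 0.814, and Gli1 and Gli3 of -0.866, values that contain the difference between the groups.

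The sequence in front of Gli3 and Gli2 is shown because the 3 deleted factors belong to the ETS family, whose binding sites share the letters GGAA. The set of RefSeq starts used here holds 6 of the 9 members (Ihh, Ptch1, Smo, Gli2, Gli3 and Hhip). The 250 bases before the Gli3 start (chr13:15463473-15463722, plus strand) and the Gli2 start (chr1:119053620-119053869, minus strand) are from GRCm38.p6 and run 5′ to 3′, with GGAA, or TTCC where it lies on the other strand, in capitals. The Gli3 window precedes the RefSeq start chosen there, which lies inside the locus of longer GENCODE transcripts.
Gli3: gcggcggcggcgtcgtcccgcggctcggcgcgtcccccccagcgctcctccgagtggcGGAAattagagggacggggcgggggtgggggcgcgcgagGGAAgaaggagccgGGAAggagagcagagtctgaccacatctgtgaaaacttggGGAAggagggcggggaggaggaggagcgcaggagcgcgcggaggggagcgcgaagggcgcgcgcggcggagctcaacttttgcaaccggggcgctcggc
Gli2: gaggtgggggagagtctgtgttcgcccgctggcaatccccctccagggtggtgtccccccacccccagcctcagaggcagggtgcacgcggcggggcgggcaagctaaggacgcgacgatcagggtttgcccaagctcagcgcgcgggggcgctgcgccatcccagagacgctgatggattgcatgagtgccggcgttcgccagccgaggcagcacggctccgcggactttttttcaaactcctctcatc
The Gli3 bases hold GGAA 4 times, all on the forward strand, and the Gli2 bases hold it 0 times. Windows of this length before all RefSeq starts of the set used here have a median of 3 (quartiles 2 and 4). GC content was 72.8% for Gli3 and 67.2% for Gli2 against a median of 52.4%. Longer motifs were searched on both strands in the 300 bases from 250 before to 50 after each start. The Gli site GACCACCCA was in 0.253% of 32851 windows and in 0 of the 6 member windows. The ETS site CCGGAAGT, which itself contains the GGAA core, was in 3.89% of windows and also in 0 of 6. The core GGAA, added after the windows had been seen, was in 96.0% of windows and in 4 of 6 members, Gli3, Ihh, Ptch1 and Smo. These matches describe the letters and nothing was measured here about binding.

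Hhip (chr8:79965851-80058006, minus strand) encodes a membrane protein that binds and sequesters ligand, and is another common target. It had 0, 2 and 1 counts in controls and 0, 15 and 0 counts in Pea3 TKO. The 15 counts of Pea3 TKO replicate 2, or 1.05 CPM, were the only value above the 3-count limit. Pea3 TKO replicates 1 and 3 were at 0, and an exact two-sided permutation test gave p = 1. The smallest possible p of that test with 3 samples against 3 is 0.10. Hhip could not be tested in the fit across all genes.

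Levels of different genes were compared per length, in RPKM (reads per kilobase of exonic length, scaled to 1e6 counts), taking the union of all exons annotated in GENCODE M21. In controls Smo was highest at 46.2 ± 3.95 RPKM, followed by Boc at 20.1 ± 3.41, Gli3 at 7.09 ± 1.08, Gli2 at 4.70 ± 1.85, Ptch1 at 0.566 ± 0.205 and Gli1 at 0.0400 ± 0.0377 RPKM (mean ± SD, n = 3). The ranges of Gli3 and Gli2 overlapped in controls, and those of Gli1, Hhip, Shh and Ihh could not be ordered. Places among all 13087 tested genes were taken by control mean CPM, without length scaling. There Smo stood at percentile 94.1, Boc at 76.4, Gli3 at 68.9, Gli2 at 49.2, Ptch1 at 25.1 and Gli1 at 0.9. In Pea3 TKO the order began in the same way, with Smo at 50.1 ± 4.39, Boc at 18.8 ± 4.59, Gli3 at 5.03 ± 0.215 and Gli2 at 2.88 ± 0.689 RPKM. Gli1 then stood at 0.558 ± 0.212 RPKM and overlapped Ptch1 at 0.430 ± 0.108 RPKM. The transducer and co-receptor were thus well above the receptor and Gli1 per length in both groups.

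**Figure D3:**
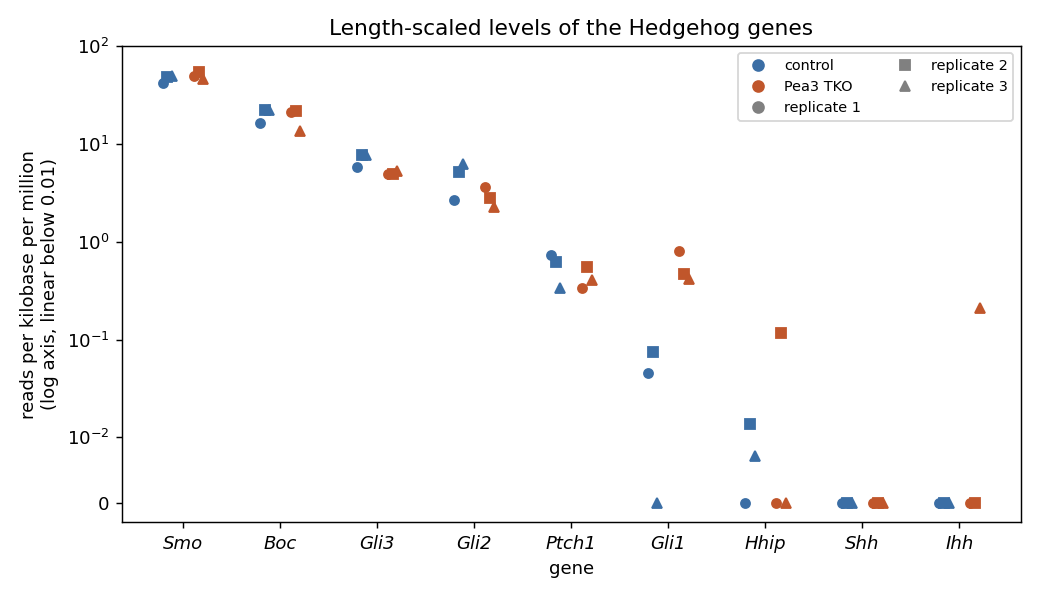
Level per length of the 9 Hedgehog genes in RPKM (logarithmic axis, linear below 0.01) for each control and Pea3 TKO sample, ordered by the control mean. Gli1 moves from 0.0400 RPKM in controls to 0.558 RPKM in Pea3 TKO, beside Ptch1, while Smo and Boc stay on top in both groups.

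The intracellular steps between Smo and the Gli factors were then read from a list of 18 regulators, all of which were tested. In this list 2 genes rose, 2 fell and 14 did not pass the test, which is 22.2% called against the 25.0% of all tested genes, and the median log2 fold change was -0.09. Kif7, a ciliary kinesin that organises Gli proteins at the cilium tip, was at 38.5, 29.3 and 34.0 CPM in controls and 20.1, 20.2 and 16.4 CPM in Pea3 TKO. No value of Kif7 was shared between the groups, and it fell by 0.84 ± 0.19 on the log2 scale (adjusted p = 0.0117). Evc, which binds Smo at the base of the cilium, was at 39.9, 37.8 and 47.2 CPM in controls and 24.3, 24.5 and 26.6 CPM in Pea3 TKO, and fell by 0.73 ± 0.16 (adjusted p = 0.0113). Stk36, the mouse relative of the fly kinase Fused, had 2.82, 2.37 and 4.75 CPM in controls and 9.14, 11.3 and 5.40 CPM in Pea3 TKO, and rose by 1.38 ± 0.44 (adjusted p = 0.0458). Mgrn1, a ubiquitin ligase that lowers Smo at the cell surface, was at 101, 72.7 and 72.8 CPM in controls and 122, 122 and 102 CPM in Pea3 TKO, and rose by 0.49 ± 0.16 (adjusted p = 0.0486). For Stk36 and Mgrn1 the nearest samples of the groups lay close together. The call of Stk36 was lost without control replicate 1 or 2 or Pea3 TKO replicate 1 or 2 (adjusted p between 0.0862 and 0.162), that of Mgrn1 without control replicate 2 or 3 or Pea3 TKO replicate 1 or 2 (0.128 to 0.169), and that of Evc without control replicate 3 (-0.63, 0.0561). Kif7 kept its call in all 6 leave-one-out fits, and with the Y-linked level as a covariate none of the 4 was called. Sufu, the inhibitor that holds Gli proteins in the cytoplasm, was at 60.5, 44.6 and 55.6 CPM against 42.6, 51.6 and 43.1 CPM, with overlapping groups and a log2 fold change of -0.23 (-0.59 to 0.14, adjusted p = 0.343).

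**Figure D4:**
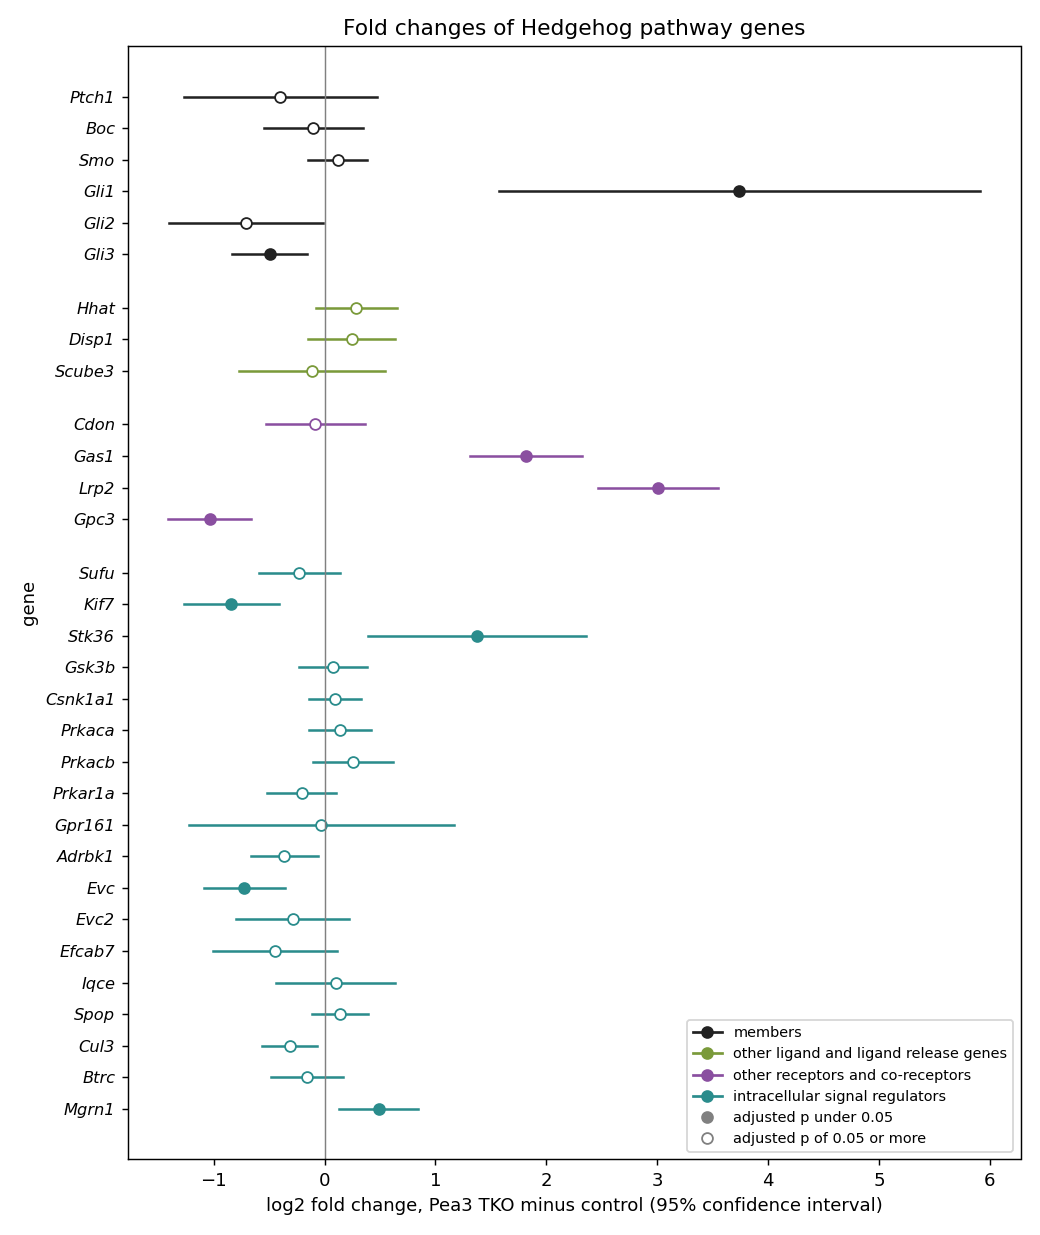
Log2 fold change (Pea3 TKO minus control) with its 95% confidence interval for the 6 tested members and the tested genes of 3 other Hedgehog lists, filled where the adjusted p is under 0.05. Gli1, Lrp2 and Gas1 lie farthest to the right at 3.74, 3.01 and 1.81, and Gpc3 farthest to the left among called genes at -1.03.

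Genes of the primary cilium, the organelle through which the pathway runs in vertebrates, were read from a list of 19. All 19 were tested, 1 rose, 0 fell and 18 did not pass the test, or 5.26% called against 25.0% of all tested genes, with a median log2 fold change of 0.00. The groups did not overlap for 6 of the 19, while 43.9% of all tested genes had groups that did not overlap. The gene called was Ift172, a subunit of the intraflagellar transport train, at 18.8, 23.5 and 20.0 CPM in controls and 30.3, 34.3 and 30.5 CPM in Pea3 TKO. Its groups did not overlap, and it rose by 0.61 ± 0.18 on the log2 scale (adjusted p = 0.0341). The call was lost when any one of the 6 samples was left out, with log2 fold changes between 0.54 and 0.71 and adjusted p between 0.0539 and 0.108.

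Genes known as Hedgehog targets in other tissues split in both directions. Of 16 listed genes 7 were tested, and 2 rose, 2 fell and 3 did not pass the test (57.1% called, against 25.0% of all tested genes), with a median log2 fold change of -0.15. Mycn, a growth-promoting transcription factor, was at 7.61, 8.35 and 4.62 CPM in controls and 18.7, 27.7 and 17.6 CPM in Pea3 TKO, and rose by 1.63 ± 0.31 (adjusted p = 0.00501). Ccnd1, the G1 cyclin D1, was at 164, 426 and 188 CPM in controls and 571, 630 and 1028 CPM in Pea3 TKO, and rose by 1.52 ± 0.35 (adjusted p = 0.0129). Both Mycn and Ccnd1 are also targets of other growth signals, and neither had overlapping groups. Foxc2, a forkhead factor of mesenchyme and vessels, was at 117, 132 and 102 CPM in controls and 61.1, 81.4 and 64.3 CPM in Pea3 TKO, and fell by 0.76 ± 0.15 (adjusted p = 0.00694). Foxm1, a forkhead factor of dividing cells, was at 93.4, 118 and 95.7 CPM in controls and 52.6, 77.7 and 76.9 CPM in Pea3 TKO, and fell by 0.57 ± 0.18 (adjusted p = 0.0403). The call of Foxm1 was lost without control replicate 2 or 3 or Pea3 TKO replicate 1 or 2 (adjusted p between 0.0646 and 0.152) and that of Ccnd1 without control replicate 3 (1.33, 0.0509), while Mycn and Foxc2 kept theirs in each such fit. With the Y-linked covariate only Ccnd1 of these 4 was called. Nkx2-2, Hand2, Grem1 and Hoxd13, targets in the neural tube and limb, had 0 counts in all 6 libraries.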

How the data were processed

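RNA of 3 control (Le-Cre) and 3 Pea3 TKO lacrimal gland buds was amplified (NuGEN Ovation RNA-seq System V2), made into TruSeq libraries and sequenced. The submitters' processing notes name bcl2fastq 2.17, STAR 2.5.2b, featureCounts 1.5.0-p3, DESeq and mm10. The annotation and strand setting are not given in the sources used here. The authors deposited unnormalized read counts for each gene symbol, with a separate table for every sample.

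From these counts, filterByExpr of edgeR 4.0.16 (R 4.3.3) kept 13087 of 23420 genes. TMM factors scaled the libraries. The group difference was tested two-sided with the edgeR quasi-likelihood test, condition being its single term, and p-values were adjusted by Benjamini-Hochberg over all tested genes. A standard error is |log2 fold change| over the root of F. The script was tested on simulated data. Exact permutation tests used scipy 1.17.1. Symbols were matched to GENCODE M21 (GRCm38) for positions and exonic lengths, with a match for 94.3% of tested genes. Correlations used log2(CPM + 0.125). Replicates of a group differed beyond sampling noise (chi-square per degree of freedom of at least 15.5).

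The members and the gene lists were chosen with earlier results of these data known. Named genes are the members, the targeted genes, the genes called in each pathway list (up to 4 per direction), every gene of lists of 6 or fewer, up to 3 top markers by level and the 5 genes most like Ptch1. Sufu, Nkx2-2, Hand2, Grem1, Hoxd13, Lum, Dcn and Pax6 were added for their role, their call or their counts of 0 after their values were seen. 1 listed gene is not reported here and is in no list count. Of the regulator list Grk2 was found only under its older symbol Adrbk1. Alternatives were other size factors, other filters, DESeq2 1.42.0, the replicate number as a block, a covariate for Y-linked expression (the log2 summed CPM of 4 genes), a threshold of 0.01 and each sample left out in turn.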

Additional observations from a re-analysis of the deposited data

How the results depend on the processing

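Calls among the members depended on single libraries and on the Y-linked covariate, which is partly confounded with the groups because it is near 0 only in Pea3 TKO replicates 1 and 2. With that covariate 0 members were called higher and 0 lower, as were 0 and 0 regulators, 0 cilium genes and 1 and 0 targets of other tissues, and over all genes 503 were higher and 292 lower in place of 1783 and 1485. Smo (-0.0198) and Disp1 (-0.0136) then changed sign. At a threshold of 0.01 the counts were 0 and 0 members, 0 and 0 regulators, 0 cilium genes, 1 and 1 targets, and 846 and 580 of all genes. DESeq2 called 2 cilium genes higher. Leaving out 1 sample at a time gave 0 to 1 members higher and 0 to 2 lower, 0 to 2 and 1 to 2 regulators, 0 cilium genes throughout, 1 to 3 and 1 to 2 targets, and 1131 to 1948 and 799 to 1417 of all genes. In these fits the log2 fold change of Gli1 ran from 3.19 to 4.48 and that of Gli3 from -0.62 to -0.43. Uncalled genes whose sign changed there were Boc (-0.238 to 0.0884, above 0 without Pea3 TKO replicate 3), Scube3 (-0.350 to 0.145, above 0 without Pea3 TKO replicate 3 and, at 0.0160, control replicate 2) and Cdon (-0.227 to 0.0364, above 0 without control replicate 3 and, at 0.00615, Pea3 TKO replicate 3). The cause was not tested. Of 286 values for 22 named genes, 239 kept direction and call, 39 lost the call, 1 gained it and 7 changed sign.

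The replicate numbers did not pair the samples: deviations of samples sharing a number correlated at r = 0.13, -0.0424 and -0.000869. With the replicate number as a block 1 regulator was called higher in place of 2, since Stk36 lost its call (1.38, adjusted p = 0.0817), Gli1 was at 4.0 (adjusted p = 0.0325), Gli3 at -0.48 (0.0470), and 1769 genes were higher and 1422 lower. Gli1 and Hhip are limited by depth, and a change in Shh or Ihh near or below the 3-count limit of 0.169 to 0.21 CPM was not detectable.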

Other observations

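Of the cell types that the capture could also hold, 6 had marker lists in which no tested gene was called. These lists had few or no tested genes, where 25.0% of all tested genes were called, so nothing is read from these counts. Endothelial markers, 0 of 1 tested called and Emcn at 0, summed to 2.49 to 3.44 CPM in controls and 0.176 to 7.76 CPM in Pea3 TKO. Macrophage markers, 0 of 4 tested called, summed to 0.997 to 18 CPM against 0 to 15.2 CPM. Schwann cell and nerve markers, 0 of 3 called and Cdh19 at 0, summed to 11.4 to 14.7 CPM against 5.14 to 9.93 CPM, lower in all 3 Pea3 TKO samples. Melanocyte markers, 0 of 2 called, summed to 2.34 to 3.55 CPM against 2.48 to 6.50 CPM, and skeletal muscle markers, with none tested, to 0.338 to 3.93 CPM against 0.0635 to 2.06 CPM. Erythroid markers, 0 of 2 called and Hba-a1 and Hba-a2 at 0, reached 220 CPM in Pea3 TKO replicate 3 against 31.2 to 101 CPM in controls. Of 8 epithelial markers 5 were called higher and 0 lower in Pea3 TKO (62.5%, against 13.6% of all tested genes called higher). Those called included Krt8 (1.61, adjusted p = 0.00162) and Cdh1 (1.1, adjusted p = 4.15e-04) in the edgeR test. They also included Pax6, which is the 1 lacrimal bud marker called higher. Epcam was among the 3 that were not called. The sums were 3167 to 3797 CPM in controls against 5426 to 6165 CPM in Pea3 TKO.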
